A study of Mus musculus with 4 samples.

Results

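Endothelial cells, the lining of blood and lymph vessels, are described here among cells of the injured pancreas that were not counted with the marked acinar lineage. A cell counted as endothelial here when it was absent from the deposited table of EYFP-positive cells, held at least 1 UMI (one counted transcript) of 2 or more of Pecam1, Cdh5, Kdr and Plvap, and held 0 UMIs of the macrophage gene Csf1r and the B cell gene Cd79a. This rule found 161 cells, called members below, among 7778 cells absent from the EYFP-positive table (unlabelled cells) and 21140 cells in all. The members were thus chosen by their own UMI counts of these genes. Every level of the members against other cells is a description without a test. Only comparisons between time points, which the rule does not use, were tested. They include the difference in change over time between the members and another class of unlabelled cells, also chosen by UMI counts.

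The study followed acinar cells of mouse pancreas through caerulein pancreatitis. All 4 mice were Ptf1aCre-ERTM;ROSAYFP/+ animals backcrossed into CD-1 and 10 weeks old when injury began. In this genotype tamoxifen activates a Cre driven by the acinar gene Ptf1a, which switches on EYFP, so the endothelial lineage is not the one marked. Acinar cells were labelled with oral tamoxifen, and repeated caerulein, a secretagogue that causes pancreatitis, was then given for 2 weeks (2 mice) or 4 weeks (2 mice), with no uninjured mice among the samples. Per the labels the cells loaded were sorted for EYFP, and how the unlabelled cells came to be in the merged table is not given in the sources used here, so their shares are shares of these libraries and not of the tissue. Nothing in the labels says more of how the mice of a time point differ, and the mouse is the replicate throughout.

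Endothelial cells are held together by VE-cadherin and PECAM1 and take their growth and survival cues from VEGF through its receptors and from angiopoietins through the Tie receptors. Vessels differ along their course: arteries carry Notch-dependent genes, veins carry genes for leukocyte entry, and capillaries of glands such as the pancreas are fenestrated, with pores closed by diaphragms of the protein PLVAP. Lymphatic vessels form a separate branch set by the transcription factor PROX1.

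By mouse there were 51 and 48 members at 2 weeks and 38 and 24 at 4 weeks. Their summed depth was 314810, 296381, 178279 and 162009 UMIs, and the median per cell was 4489, 4800, 3028 and 4416 UMIs. Depth differed widely between members, from 1001 to 53940 UMIs, and 12 members lay above 15000 UMIs. No step to remove doublets was run. Of all cell barcodes, 67 occurred in more than 1 mouse, and 1 member had such a barcode, with no barcode common to members of different mice. At least 1 EYFP UMI was found in 19 of 161 members (11.8%, median depth 4253 UMIs) and in 7.79% of the 7617 remaining unlabelled cells (median depth 4018 UMIs), and in CPM (counts of a gene scaled to a fixed total of all UMIs, summed over the members of a mouse) EYFP stood at 41.3, 27.0, 50.5 and 86.4 CPM in the members of 2-week mouse 1, 2-week mouse 2, 4-week mouse 1 and 4-week mouse 2. The order of the 4 values is the same wherever 4 are given below. Of the 149 members of up to 15000 UMIs, 8.05% held an EYFP UMI, and EYFP stood at 34.2, 9.78, 14.1 and 11.3 CPM. The remaining cells were not limited by depth in this way.

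Pan-endothelial genes outside the rule were found in most members. Their list was chosen with earlier results of these data known, so the counts are a description and not an independent check. Of a list of 20 pan-endothelial genes that the rule did not use, at least 5 were found in 145 of the 161 members. All 109 members with all 4 rule genes reached this number, with a median of 14 of the 20 genes, as did 30 of 33 members with 3 rule genes. The 19 members with 2 rule genes, just inside the threshold, stood apart: their median was 2 of the 20 genes and 6 of the 19 reached 5. Just outside, 3 of 276 unlabelled cells with 1 rule gene reached 5, although these cells were deeper, with a median of 6849.5 UMIs against 2883 UMIs. Of the 19 members with 2 rule genes, 7 held a UMI of the epithelial gene Epcam, 6 of the collagen gene Col1a1, 6 of the mesothelial gene Msln and 4 of the leukocyte gene Ptprc. A narrower set of 128 members with 0 UMIs of Ptprc, Epcam and Col1a1 is therefore used for comparison below.

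Genes common to endothelial cells were high in the members. All 20 pan-endothelial genes were more than 2-fold higher in the members than in the remaining unlabelled cells in every mouse, where 876 of 14451 genes (6.06%) were. The median log2 ratio of the 20 genes, taken within each mouse with 1 CPM added, was 6.17, against 0.09 over all genes, and the added CPM understates the ratio of genes near 0 in the other cells. Flt1, the VEGF receptor that also acts as a decoy, had 1709 and 1208 CPM at 2 weeks and 1609.8 and 1253 CPM at 4 weeks in the members and 1.43 ± 0.717 CPM (SD, n = 4) in the remaining cells, a log2 ratio of 9.26 ± 0.42. Ptprb, the phosphatase that restrains Tie2 signalling, had 664, 712, 1026 and 728 CPM and a log2 ratio of 8.95 ± 0.29. Emcn, the sialoglycoprotein endomucin of capillary and venous surfaces, had 673, 604, 813 and 556 CPM and a log2 ratio of 8.88 ± 0.48. The time points overlapped in Flt1 and Emcn, both 4-week mice lay above in Ptprb, and every mouse's members stood far above its remaining cells.

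Others of the 20 genes encode secreted proteins and transcription factors. Egfl7, a secreted regulator of vessel tube formation, was found in 143 of 161 members at 1559.7, 1366, 1632 and 1734 CPM. Mmrn2, the endothelial matrix protein multimerin 2, had 359, 348, 533 and 364 CPM with a log2 ratio of 8.23 ± 0.64. Among transcription factors, the SOXF genes Sox17, Sox18 and Sox7, which specify endothelial fate, had log2 ratios of 7.88 ± 0.67, 7.94 ± 0.71 and 4.63 ± 0.75, and the ETS factor gene Erg had 6.11 ± 0.34. The lowest ratios in the list were those of Fli1 (2.14 ± 0.31), an ETS factor that blood cells also make, and Cd34 (2.99 ± 0.44), which stood at 497 CPM in unlabelled cells with UMIs of at least 2 of the fibroblast genes Col1a1, Dcn, Pdgfra and Lum (783 cells, called fibroblast-rule cells).

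**Figure D1:**
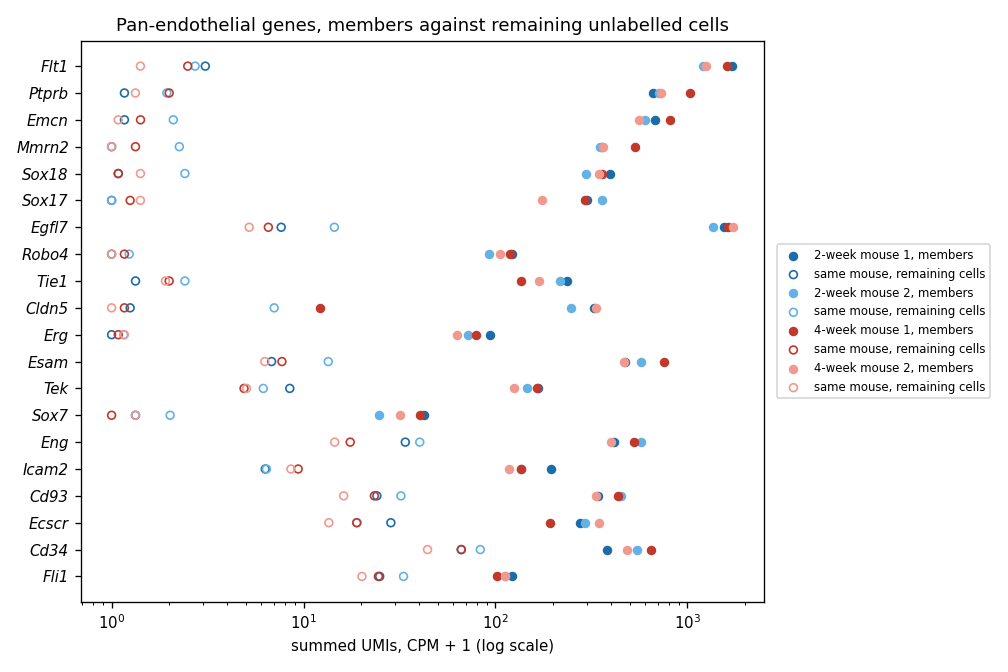
Level of each of the 20 pan-endothelial genes (rows) as summed UMIs in CPM plus 1 on a log axis, with filled points for the members and open points for the remaining unlabelled cells of the same mouse (colours). Every filled point lies to the right of the open point of its colour, and Cldn5 is the row with the widest spread between mice, from 11.2 to 333 CPM.

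The start-site upstream sequence of 3 of these genes is shown, as genes of ETS and SOXF factors are themselves in the list. Whether these factors bind or regulate the genes was not tested. Sequences are the 250 bases before the annotated start, 5′ to 3′ on the gene's strand, from RefSeq on GRCm38.p6. They are Flt1 (chr5:147726012-147726261, minus strand), Emcn (chr3:137340828-137341077, plus strand) and Tie1 (chr4:118489850-118490099, minus strand). Capitals mark AGGAAG or its reverse complement CTTCCT, letters that ETS factors can bind.
Flt1: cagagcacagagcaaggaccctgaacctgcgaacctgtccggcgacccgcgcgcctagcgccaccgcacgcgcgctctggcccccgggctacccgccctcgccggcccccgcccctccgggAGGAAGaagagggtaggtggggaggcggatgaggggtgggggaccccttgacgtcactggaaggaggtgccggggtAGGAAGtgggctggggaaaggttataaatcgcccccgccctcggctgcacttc
Emcn: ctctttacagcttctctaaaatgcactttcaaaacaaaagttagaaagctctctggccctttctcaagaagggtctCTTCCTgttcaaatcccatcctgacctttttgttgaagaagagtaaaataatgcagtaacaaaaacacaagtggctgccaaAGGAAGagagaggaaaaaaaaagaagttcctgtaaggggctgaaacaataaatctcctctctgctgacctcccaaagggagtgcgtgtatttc
Tie1: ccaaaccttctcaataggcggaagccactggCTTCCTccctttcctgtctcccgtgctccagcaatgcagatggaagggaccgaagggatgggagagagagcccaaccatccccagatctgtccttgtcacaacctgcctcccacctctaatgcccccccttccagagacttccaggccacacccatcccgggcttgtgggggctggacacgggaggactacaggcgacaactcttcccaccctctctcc

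Of the 24 pan-endothelial and rule genes, 11 had an entry in the RefSeq promoter table, with 15 windows in all, some of them of 1 gene. The ETS letters were in 9 of the 15 windows (60.0%) and in at least 1 window of 8 of the 11 genes, against 9686 of 32851 windows of the same length in the whole table (29.5%). The letters ACAAAG or CTTTGT, which SOX factors can bind, were in 3 of the 15 windows and in 16.5% of all windows, and overlap neither form of the ETS letters. Flt1 and Emcn each held 2 ETS matches and Tie1 held 1, while the single windows of Kdr, Cldn5 and Tek held 0. The windows of Flt1, Emcn and Tie1 held 0 SOX matches.

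Capillary genes were found in most members. Rbp7, Fabp4 and Gpihbp1 were among the 15 genes outside the rule with the largest ratio to the remaining cells, and 11 of 12 capillary genes were more than 2-fold higher in every mouse. Fabp4, a fatty acid binding protein of capillary endothelium, was found in 142 of 161 members at 6137 and 7001 CPM at 2 weeks and 5799.9 and 5401 CPM at 4 weeks, against 18.0 ± 6.29 CPM in the remaining cells. Rbp7, a retinol binding protein, had 1093, 472, 2159.5 and 636 CPM and the largest log2 ratio among genes outside the rule, 9.44 ± 0.98. Its 4 values ran from 472 to 2159.5 CPM, a wider spread than in Fabp4. Gpihbp1, which carries lipoprotein lipase to the capillary surface, had 248, 256, 454 and 296 CPM, while Lpl, the lipase it carries, was at 6.35, 27.0, 16.8 and 0 CPM in the members, 188 ± 64.3 CPM in the remaining cells and 1205 CPM in fibroblast-rule cells. Members thus held the carrier of the enzyme in 92 of 161 cells and the enzyme's own RNA in 6 of 161.

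The other capillary genes were spread over fewer cells. Rgcc, a cell cycle regulator induced in endothelium, was found in 120 of 161 members at 1795, 1397, 2378 and 790.1 CPM, and 117 members held both Fabp4 and Rgcc. Cd300lg, a receptor of the capillary surface, was in 113 of 161 members, Aqp1, the water channel, in 100 of 161, and Cd36, the fatty acid transporter, in 78 of 161. Car4, the carbonic anhydrase on the capillary surface, was in 27 of 161 members. Meox2 alone of the 12 genes was at or near 0, with 4 UMIs in 3 members, while its paralog Meox1 was in 65 of 161. The remaining genes of the 15, Cyyr1, Adgrl4, Clec14a, Grrp1 and Thrsp, had log2 ratios of 8.22, 7.98, 7.50, 7.49 and 7.48. Adgrl4 and Clec14a encode surface proteins of endothelium, an adhesion receptor and a C-type lectin.

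Caveolae, pits through which these vessels exchange solutes, were well represented in RNA. For fenestrae, the pores, the gene given is Plvap, and its share of members is partly set by the rule. Plvap, the diaphragm protein and one of the rule genes, was in 148 of 161 members at 1877, 2520.4, 3001 and 1827 CPM, and Cav1, the caveola coat protein, in 130 of 161 at 638, 570.2, 623 and 636 CPM. Ehd4, a membrane-remodelling ATPase, and Cavin2 were in 136 of 161 and 110 of 161. Of the junction genes, the tight junction claudin Cldn5 was sparse: it was in 14 of 161 members, and 206 of its 231 UMIs lay in 6 cells with lymphatic markers, described below. The other 155 members held 25 Cldn5 UMIs, although Esam and Jam3 were in 133 and 78 of the 161. Cdh5, a rule gene and so partly set by the selection, was in 133.

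The members were split by at least 1 UMI of 2 or more markers of a vessel type. Capillary markers were met by 124 members (77.0%), arterial by 37 (23.0%), venous by 23 (14.3%), tip-cell, the sprouting state, by 21 (13.0%) and lymphatic by 6 (3.73%), and 23 members met none. The subsets overlap, since 31 of the 37 arterial members also met the capillary markers, and only 3 were arterial alone. All 6 lymphatic and 15 of the 23 venous members also met the capillary markers, and 68 were capillary alone. Of the 128 members, 105 met the capillary, 30 the arterial, 16 the venous, 13 the tip-cell and 3 the lymphatic markers. The counts also depend on depth: with each cell thinned to 1000 UMIs, in the mean of 5 draws, 82.6 members met the capillary, 14.0 the arterial, 5.20 the venous, 1.00 the tip-cell and 5.00 the lymphatic markers. Of the 24 members that met none of the arterial, venous, capillary and lymphatic markers, 14 had 1001 to 3076 UMIs. The other 10 had 6822 to 30293 UMIs, with 0 or 1 Plvap UMI and 10 to 264 Cd74 UMIs each. By mouse, the capillary subset took 84.3%, 72.9%, 76.3% and 70.8% of members and the venous subset 5.88%, 25.0%, 10.5% and 16.7%.

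**Figure D2:**
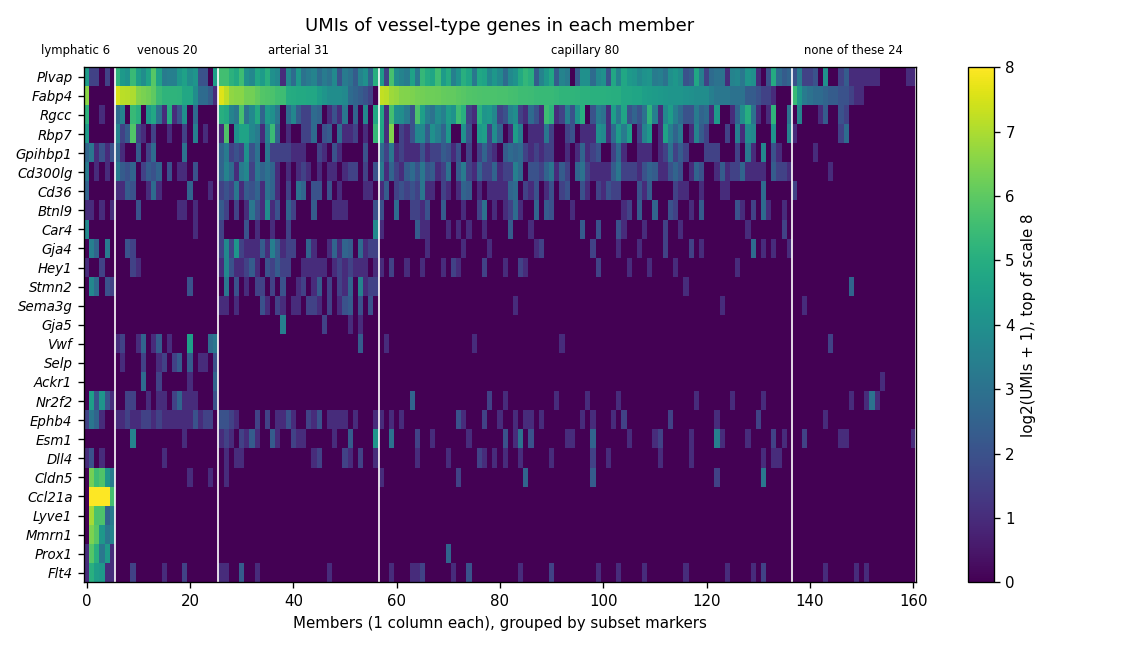
UMIs of 27 vessel-type genes (rows) in each of the 161 members (columns), as log2(UMIs + 1) on a colour scale that ends at 8. Cells stand under the first of lymphatic (6), venous (20), arterial (31) and capillary (80) whose markers they met, and 24 met none of these. Ccl21a, Lyve1, Mmrn1 and Cldn5 fill 5 of the 6 lymphatic columns, and Fabp4, common in the other groups, is in the remaining 1.

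Arterial markers were found in a small group, most of which also met the capillary markers. Fabp4, which is in neither marker set, was in 86.5% of it. Gja4, the arterial connexin 37, was in 46 of 161 members at 159, 162, 163 and 136 CPM, and Hey1, a Notch target, was in 46 of 161. Stmn2, listed as arterial here, was in 26 members, of which 19 also held Gja4 and 13 also held Fbln5, an elastic fibre protein. Gja5, connexin 40 of larger arteries, was in 4 members with 14 UMIs. Of the 37 arterial members, 4 also met the lymphatic markers.

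Of the 9 venous genes, 8 were more than 2-fold higher in every mouse, and 101 members held a UMI of at least 2 of them, while Selp, Ackr1 and Vwf were each in few cells. Selp, the P-selectin that starts leukocyte rolling, was in 10 members with 21 UMIs, Ackr1, the chemokine receptor of venules, in 5 with 15, and 4 members held both. Vwf, von Willebrand factor, was in 15 members at 22.2, 64.1, 123 and 74.1 CPM. The value of 4-week mouse 1 came from 1 cell with 22 UMIs. Slco2a1, the prostaglandin transporter, was more common, in 84 members at 146, 337, 258 and 333 CPM. Lrg1, a secreted glycoprotein that was no marker of the subset, was found in 78.3% of the 23 venous members (median depth 6649 UMIs) and in 37.3% of all members (4253 UMIs), with no thinning. Aqp1, named above with the capillary genes, was in 22 of the 23 venous members at 957 CPM pooled. In the 124 capillary members, which overlap the venous, it was in 86 at 518 CPM. Cells of sprouting type were also few: Esm1, endocan of tip cells, was in 41 members at 92.1, 118, 101 and 185 CPM, but Apln and Angpt2 had 4 and 12 UMIs. Aplnr, the receptor of the peptide that Apln encodes, was in 66 members.

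Lymphatic endothelium came from 5 cells. Ccl21a, the chemokine that draws dendritic cells into lymphatics, had 2736 UMIs in 5 members, and the hyaluronan receptor gene Lyve1, the multimerin gene Mmrn1 and the reelin gene Reln had 238, 181 and 52 UMIs in the same 5 cells, with 0 UMIs in the other members. One cell of 2-week mouse 1, the deepest member at 53940 UMIs, gave 1406 of the Ccl21a UMIs, and 1330 remain without it. Of the 5 cells, 2 came from 2-week mouse 1, 1 from 2-week mouse 2 and 2 from 4-week mouse 2. The level of Ccl21a was thus 5362, 1346, 0 and 4006 CPM and follows from where these cells fell. The sixth cell to meet the lymphatic markers, in 4-week mouse 1, held 1 UMI each of Prox1 and Flt4, 0 of the other 3 markers and 96 of Fabp4. Fabp4 was at 0 in the 5 cells, Cldn5 had 9 to 80 UMIs in each, and Flt4, the VEGF-C receptor, had 111 UMIs in all, 36 of them in the 155 members outside this group.

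Members held the receptors of the VEGF pathway at high levels, while its ligands had few UMIs. Of the 5 receptor genes, the 4 outside the rule were more than 2-fold higher in every mouse. Kdr, the main signalling receptor and a rule gene, had 1089.5, 752, 993 and 821 CPM, and the co-receptor gene Nrp1 had 578, 449, 779.7 and 506 CPM, against 58.0 ± 23.1 CPM in the remaining cells. The 5 ligand genes together had 95.3, 50.6, 56.1 and 74.1 CPM in the members and 80.0, 120, 85.7 and 74.8 CPM in the remaining cells, so the sum did not separate them. Vegfb had 30 UMIs and a log2 ratio of -0.07 ± 0.67, and Pgf had 11 UMIs in 4 members. Vegfa had 6 UMIs and Vegfd 5, both lower than in the remaining cells in 4 of 4 mice. In fibroblast-rule cells Vegfa and Vegfd stood at 44.8 and 144 CPM (means of 4 mice). Vegfc, which acts on lymphatic vessels, was higher in members than in the remaining cells in 4 of 4 mice but with 15 UMIs.

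The angiopoietin receptors followed the same split. Tie1 had 235, 216, 135 and 167 CPM and Tek, which encodes Tie2, 165, 145, 163 and 123 CPM, while Angpt1, the activating ligand, had 1 UMI and Angpt4 had 0. A count of 0 in the members' 951479 UMIs allows a level of up to 3.15 CPM, and in 161 cells a share with a UMI of up to 1.86%, for counting error only. In the Notch list 7 of 12 genes were more than 2-fold higher in every mouse. The receptor genes Notch1 (273, 209, 191 and 154 CPM) and Notch4 (50.8, 40.5, 101 and 61.7 CPM) and the ligand genes Jag2 (92.1, 81.0, 50.5 and 55.6 CPM) and Dll4 (50.8, 16.9, 39.3 and 43.2 CPM) were among them, and the mural target Heyl was at 0. The BMP targets Id1 and Id3, inhibitors of helix-loop-helix factors, had 797, 709, 1105 and 691 CPM and 1531, 1619.5, 1963 and 1376 CPM, with log2 ratios of 5.58 ± 0.79 and 4.67 ± 0.53. Of the 12 genes of the BMP and TGF-β list, 8 were more than 2-fold higher in every mouse, among them the endothelial receptor gene Acvrl1 (2.44 ± 0.28) and the co-receptor gene Eng (4.29 ± 0.66).

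All 7 genes of shear and vessel tone, and 4 of 8 coagulation genes, were more than 2-fold higher in every mouse. Klf2, the transcription factor induced by shear, had 924, 1093, 1127 and 623 CPM against 180.3 ± 35.1 CPM, and Nos3, the endothelial nitric oxide synthase, had 47.6, 27.0, 50.5 and 30.9 CPM. Thbd, thrombomodulin, which turns thrombin into an anticoagulant, was in 127 of 161 members at 549.5, 580.3, 538 and 488 CPM. Ednrb, the endothelin B receptor, had 50.8, 304, 129 and 92.6 CPM, but 36.8% of its UMIs lay in 1 cell.

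Basement membrane genes were shared with fibroblast-rule cells. Col4a1, the network collagen, had 1023, 1431, 1324 and 864 CPM in the members, a log2 ratio of 4.04 ± 0.60 to the remaining cells and of 1.30 ± 0.30 to fibroblast-rule cells. Nid1, the linker nidogen 1, went the other way, with -2.61 ± 0.49 to fibroblast-rule cells. Sparc, a matricellular protein, was in 149 of 161 members at 3081, 4616, 4936 and 3926 CPM, and at 6759.6 CPM in fibroblast-rule cells. Over the 12 genes the summed level was 6169, 8570, 8397 and 6419 CPM in the members and 10664, 9955, 7692 and 10697 CPM in fibroblast-rule cells, ranges that overlap.

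Sele, Icam1, Vcam1 and Cxcl1, genes of leukocyte adhesion and recruitment that endothelium raises when inflamed, were low or at 0. The leukocyte adhesion list of 14 genes was mixed. In the members 5 were higher than in the remaining cells in every mouse, 4 of them more than 2-fold, and 5 were higher in no mouse. The list's sum was 445, 543, 381 and 377 CPM in the members and 684, 243, 231 and 162 CPM in the remaining cells. Sele, E-selectin, had 0 UMIs, in the members and in all other unlabelled cells. Icam1 had 15.9, 50.6, 33.7 and 18.5 CPM and Vcam1 9.53, 30.4, 11.2 and 24.7 CPM, with log2 ratios of -0.35 ± 0.93 and -0.97 ± 1.14, and Cxcl1 had 0 UMIs. The constitutive members of the list, Icam2 and the junction molecule gene Jam2, were instead in 80 and 71 members, at 194, 135, 135 and 117 CPM and 114, 192, 129 and 117 CPM. Of 10 proliferation genes at least 1 was found in 65 members. Pcna, the replication clamp, which cells also use in DNA repair, was in 36 members, while the cycling markers Mki67 and Top2a were in 1 and 6, and 13 members (8.07%) held 2 or more of the 10, against 12.5% of the remaining cells, both unthinned.

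RNA of non-epithelial cell types reached 2 markers in few members, and that of epithelial cells in many. At least 2 markers were found of leukocytes in 10 members (6.21%), of fibroblasts in 9 (5.59%) and of mesothelium in 6 (3.73%). Endocrine markers reached 2 in 5 members (3.11%) and mural markers in 2 (1.24%). In the remaining cells the shares were 48.8%, 12.1%, 1.42%, 8.82% and 2.30% in the same order, all unthinned. The mesothelial share was thus the only one of these that was larger in the members. Red cell and platelet markers reached 2 in 0 members and Schwann cell markers were at 0. Genes with 0 UMIs were 1 of 5 fibroblast genes (Lum), 1 of 7 leukocyte genes (Ms4a1) and 1 of 7 mural genes (Cspg4). The other genes of these lists had UMIs in the members, while all 3 Schwann cell genes, Sox10 among them, had 0. All 6 mesothelial-marker members had 2 rule genes, and they held 911 of the 918 UMIs of Dcn, the fibroblast and mesothelial proteoglycan decorin. Epithelial markers reached 2 of 7 in 74 members, 60 of which had 3 or 4 rule genes, and 75.9% of the remaining cells did so. Tff2, a secreted trefoil peptide, was in 131 members, and Epcam in 25. Every member held a UMI of at least 2 of the 10 acinar genes, as did 99.9% of the remaining cells.

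The members took a share of 2.95% and 2.86% of unlabelled cells at 2 weeks and of 1.82% and 1.05% at 4 weeks. Their 95% exact (Clopper-Pearson) binomial intervals were 2.20 to 3.86%, 2.12 to 3.77%, 1.29 to 2.49% and 0.675 to 1.56%, and those of both 2-week mice overlap that of 4-week mouse 1. The mean was 2.90 ± 0.0606% (SD, n = 2) at 2 weeks and 1.44 ± 0.543% at 4 weeks, a difference of -1.47 percentage points, and of -1.08 points with the 128 members. Both 4-week mice lay below both 2-week mice, and the 2-sided exact permutation test gave p = 0.333, the smallest that 2 against 2 mice allow, so the design could not place this difference past 0.05. Fibroblast-rule cells took 11.2%, 17.6%, 7.57% and 5.92%, also lower in both 4-week mice. The total of unlabelled cells was 1731, 1678, 2088 and 2281.

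**Figure D3:**
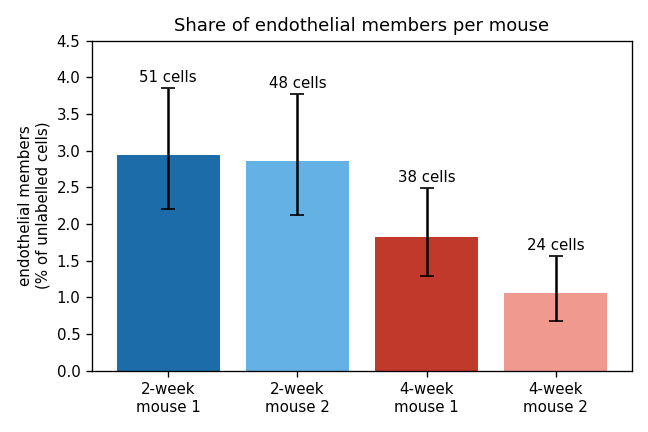
Members as a percentage of all unlabelled cells of a mouse (bars), with 95% exact binomial intervals (lines) that cover counting error only, and the number of members above each bar. The bars of the 4-week mice, 1.82% and 1.05%, are lower than those of the 2-week mice, 2.95% and 2.86%.

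No gene, vessel genes included, passed the main test of a change between 2 and 4 weeks in the members. With edgeR's quasi-likelihood test on UMIs summed per mouse, 0 of 4174 genes (0%) passed an adjusted p of 0.05 (Benjamini-Hochberg), the smallest adjusted p being 0.261, and 181 genes (4.34%) had an unadjusted p under 0.05. DESeq2 called 13 of 723 genes that it kept, 3 higher and 10 lower, which are digestive enzyme and Reg genes (9), the interferon gene Ifi27l2a, and Dcn, Igfbp5 and Igfbp6. Of 19 pan-endothelial genes tested, 7 had a positive and 12 a negative log2 fold change, with a median of -0.09, against a median near 0 over all genes. The summed level of the list was 8834, 8357, 9597 and 8234 CPM, and groups overlapped. Leaving out 1 mouse leaves an arm with 1 mouse, assumed to vary like the others, and gave 66 calls without 2-week mouse 1, 56 without 2-week mouse 2, 45 without 4-week mouse 1 and 75 without 4-week mouse 2, while keeping genes of low counts gave 73. Counts were simulated at this depth with 200 genes changed 4-fold and 1 dispersion (spread between mice) of 0.0674 for all genes. Of the 200, 121 were recovered with 0 false calls, so part of the changes of that size would be missed. Neither a spread that differs by gene nor counts held by single cells were simulated, so these numbers need not hold for the real counts.

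Among vessel genes, those with the smallest p were few and none passed. Car4 had 60.4 and 27.0 CPM at 2 weeks and 151 and 98.8 CPM at 4 weeks (log2 fold change 1.46, SE 0.44, adjusted p = 0.995). Of its 27 UMIs in 4-week mouse 1 and 16 in 4-week mouse 2, 13 lay in 1 cell of each mouse. The higher values at 4 weeks thus rest largely on 2 cells. That of 4-week mouse 1 was the lymphatic-marker cell with 96 Fabp4 UMIs. Tcf15, a transcription factor of capillary endothelium, had 28.6 and 23.6 CPM at 2 weeks and 95.4 and 74.1 CPM at 4 weeks (log2 fold change 1.64, SE 0.39, adjusted p = 0.522). Stmn2 had 88.9 and 37.1 CPM at 2 weeks and 146 and 136 CPM at 4 weeks (log2 fold change 1.11, SE 0.42, adjusted p = 0.995). Both 4-week mice lay above both 2-week mice in these genes, as they did in 807 of all 4174 genes (19.3%). Fbln5 had 111 and 70.9 CPM at 2 weeks and 22.4 and 30.9 CPM at 4 weeks (log2 fold change -1.80, SE 0.46, adjusted p = 0.674), and Nr2f2, the venous and lymphatic nuclear receptor gene, 114 and 115 CPM at 2 weeks and 44.9 and 74.1 CPM at 4 weeks (log2 fold change -0.99, SE 0.37, adjusted p = 0.995). In these genes both 4-week mice lay below, as in 584 genes (14%). The 6 lymphatic-marker cells held 31 of 65 Fbln5 UMIs and 46 of 90 Nr2f2 UMIs, and without them the log2 fold changes were -1.20 and -0.07. Tie1 (log2 fold change -0.62, SE 0.27, adjusted p = 0.995) and Col15a1, a basement membrane collagen at 432, 638, 353 and 290.1 CPM (log2 fold change -0.78, SE 0.29, adjusted p = 0.995), also had lower values in both 4-week mice. Over the alternatives that kept it, the adjusted p of Car4 ran from 0.0146 to 0.996, passing without 2-week mouse 1 (log2 fold change 2.13) and without 4-week mouse 2 (1.70), and its log2 fold change was 0.89 without the lymphatic-marker cells. That of Fbln5 ran from 0.03 to 1 and passed with genes of low counts kept. Stmn2 ran from 0.0216 to 0.998 and passed without 2-week mouse 1 (1.84). Tcf15, Nr2f2, Tie1 and Col15a1 passed in none of the alternatives run. By list, 4 of 11 capillary genes tested were separated upward and 1 downward, and 3 and 4 of 19 pan-endothelial genes.

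The genes with the smallest p in either direction lay outside the vessel lists. Those with higher values at 4 weeks were Cytl1, Tm4sf4, Rspo1, Igfbp5 and Nkain4, all with adjusted p = 0.261 in edgeR. Igfbp5, an IGF-binding protein, had 521 and 371 CPM at 2 weeks and 1379.9 and 1111 CPM at 4 weeks, but 97.3% of its 700 UMIs lay in the 6 mesothelial-marker members, as did 96.2% of those of Nkain4 and all 74 of Rspo1. Of 73 Tm4sf4 UMIs, 5 lay in the 128 members without Ptprc, Epcam and Col1a1. Cytl1, a secreted cytokine-like protein, had 0 UMIs in both 2-week mice and 14 UMIs in each 4-week mouse, each time in 1 cell. These 28 UMIs are thus those of 2 cells, and no fold is given.

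Those with lower values at 4 weeks included Try10, Reg1, Ctrl and Pnlip, which are acinar products. Ctrb1, chymotrypsinogen, had 14618 and 18405 CPM at 2 weeks and 4509.8 and 6259 CPM at 4 weeks in the members (log2 fold change -1.65, SE 0.32, adjusted p = 0.261). All 9 acinar genes tested had a negative log2 fold change, with a median of -1.50, and in 8 of the 9 both 4-week mice lay below both 2-week mice, against 14% of all genes tested. This difference rests in part on 1 cell of 2-week mouse 2, in which 8467 of 17912 UMIs were of 28 digestive enzyme genes, 28.4% of all enzyme UMIs of the members. Without the 12 members above 15000 UMIs the log2 fold change of Ctrb1 was -0.71. Over the other 149 members the summed acinar level was 33325, 7774, 8799.9 and 15998 CPM, and over the 128 members it was 34006, 8272, 7116 and 13906 CPM, and the time points overlap in both. In the remaining unlabelled cells the order was the opposite, with 69700.4, 44848, 81008 and 124893 CPM. In fibroblast-rule cells the summed acinar level was 18204, 10699, 6756 and 37614 CPM, so the time points overlapped. The median log2 fold change of the 10 acinar genes tested there was 0.62. The part of acinar cells or their free RNA in these values was not tested.

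**Figure D4:**
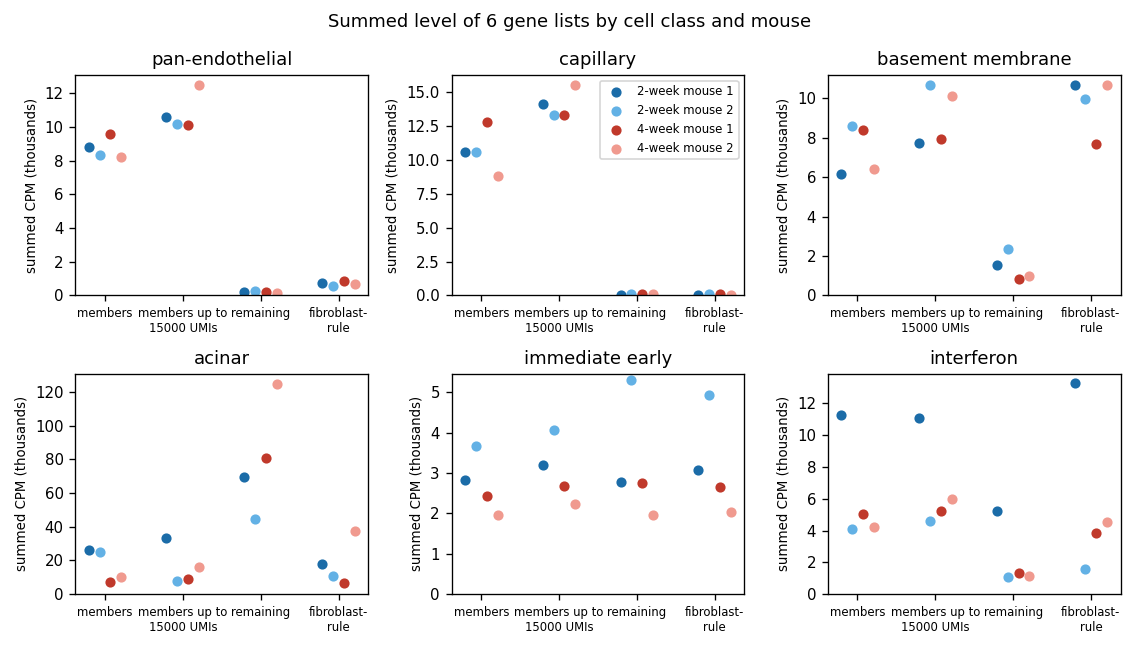
Summed level of 6 gene lists in units of 1000 CPM (each panel its own axis, starting at 0) for the members, the members of up to 15000 UMIs, the remaining unlabelled cells and fibroblast-rule cells, 1 point per mouse. The pan-endothelial and capillary panels separate the members from the other classes and not the time points, and in the acinar panel the point of 2-week mouse 2 stands at 25282 CPM with all members and at 7774 CPM without the deeper ones.

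Immediate early genes had lower values at 4 weeks in the members and in fibroblast-rule cells, with none past the test. Of 11 immediate early genes tested, which rise within minutes of stimulation and also during dissociation of tissue, 10 had a negative log2 fold change in the members, as did 2109 of all 4174 genes, and in 6 both 4-week mice lay below, against 14% of all genes. Their median was -0.70. In fibroblast-rule cells all 14 genes of the list were tested, with a median of -0.80, so the 2 medians cover different genes. Hspa1a, a heat shock chaperone, had 73.1 and 128 CPM at 2 weeks and 11.2 and 0 CPM at 4 weeks (log2 fold change -4.02, SE 0.78, adjusted p = 0.261), and Egr1, a growth factor-induced transcription factor, 79.4 and 186 CPM at 2 weeks and 33.7 and 37.0 CPM at 4 weeks (log2 fold change -1.93, SE 0.54, adjusted p = 0.893). Neither passed here. Over the alternatives the adjusted p of Hspa1a ran from 5.80e-07 to 0.882, passing without 2-week mouse 1 (log2 fold change -4.38), without 4-week mouse 1 (no fold given, as the remaining 4-week mouse had 0 UMIs), without 4-week mouse 2 (-3.19) and with genes of low counts kept (-4.08). That of Egr1 ran from 1.24e-04 to 0.998, passing without 2-week mouse 1 (-2.44), without 4-week mouse 2 (-2.04) and with genes of low counts kept (-1.99). Over the 128 members the summed level of the list was 3164, 3998, 3113 and 1937 CPM, and in the remaining cells it was 2792, 5297, 2766 and 1973 CPM.

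Interferon-stimulated genes were highest in 1 of the 2-week mice. Isg15, an antiviral ubiquitin-like protein, had 1502 and 60.7 CPM at 2 weeks and 163 and 117 CPM at 4 weeks in the members, 1487, 64.8, 107 and 136 CPM in fibroblast-rule cells and 845, 26.4, 79.0 and 80.6 CPM in the remaining cells. The list's sum was 11296, 4106, 5020.2 and 4203 CPM in the members and 11873, 4695, 4526 and 4337 CPM in the 128, where both 4-week mice lay below both 2-week mice. In each of the 3 classes 2-week mouse 1 was the highest. The log2 fold change of Isg15 between time points (log2 fold change -2.51, SE 1.85, adjusted p = 0.995) turned to 1.13 when that mouse was left out, and its adjusted p ran from 1.13e-04 to 0.998 over the alternatives.

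The time course of the members differed from that of fibroblast-rule cells in 3 of 9149 genes (0.0328%), by an interaction of class and time with the mouse as a block in edgeR. All 3 belong to MHC class II, which presents antigen to helper T cells. Cd74, the invariant chain, had 2131 and 587 CPM at 2 weeks and 617 and 401 CPM at 4 weeks in the members and 455 and 157 CPM at 2 weeks and 1187 and 970.4 CPM at 4 weeks in fibroblast-rule cells. Its interaction was -3.28 on the log2 scale (SE 0.29, adjusted p = 5.67e-04), and those of H2-Ab1 and H2-Aa were -3.92 (SE 0.39, adjusted p = 0.0011) and -4.24 (SE 0.45, adjusted p = 0.00155). H2-Eb1 had -3.24 (adjusted p = 0.0669). In a test of time within 1 class, none of the 3 passed in the members or in fibroblast-rule cells. Leaving out 1 mouse in turn gave 54, 29, 66 and 24 calls, with Cd74, H2-Ab1 and H2-Aa called each time, and DESeq2 called 3 genes.

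The class II RNA did not lie in typical members. Of 1020 Cd74 UMIs, 995 lay in the 33 members with a UMI of Ptprc, Epcam or Col1a1, and 774 in the 7 members with Ptprc. The 128 members without these genes held 25 Cd74 UMIs, 18 and 3 at 2 weeks and 4 and 0 at 4 weeks, or 46.9 CPM pooled against 1072 CPM in all members. They held 5 of 276 H2-Aa UMIs and 16 of 263 of H2-Ab1. With these 128 members, a choice made after seeing the data, the interaction of Cd74 was -3.50 (adjusted p = 0.172), and those of H2-Ab1 (-2.28) and H2-Aa (-2.92) had an adjusted p of 1, while 3 other genes, Gkn3, Wfdc18 and Pgc, passed. Without the 12 members above 15000 UMIs, H2-Ab1 kept an adjusted p of 0.0340, with Cd74 at 1 (interaction -4.53) and H2-Aa at 0.590 (-4.44). Over all alternatives the adjusted p of Cd74 ran from 3.38e-23 to 1. In the remaining unlabelled cells Cd74 was at 9125, 6682, 7404 and 5249 CPM. The part of leukocytes in the members' class II values was not tested beyond these counts.

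**Figure D5:**
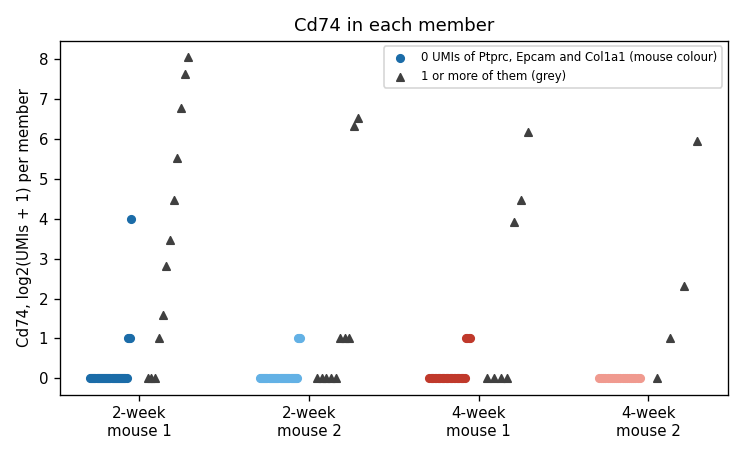
Cd74 as log2(UMIs + 1) in each member (points) by mouse, with coloured circles for the 128 members without UMIs of Ptprc, Epcam and Col1a1 and grey triangles for the 33 others. Of the 128 circles, 117 lie at 0, and the points above the level of 4 are grey in every mouse.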

How the data were processed

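The authors' deposited files hold raw UMI counts per gene and cell, 3′ single-cell libraries of 4 mice merged in 1 table and EYFP-positive cells in another, not normalized. Per the submitters' processing notes, Cell Ranger 4.0.0, Seurat 3.2.3 and mm10 were used. The files' smallest cell has 1000 UMIs. The members and gene lists were chosen with earlier results of these data known. UMI counts were summed per mouse over the members, the remaining unlabelled cells and fibroblast-rule cells. Time was tested with edgeR 4.0.16 (quasi-likelihood, TMM, robust, genes kept by filterByExpr, Benjamini-Hochberg) and, as an alternative, DESeq2 1.42.0 in R 4.3.3. The difference of 2 classes over time was an interaction with the mouse as a block. The edgeR test gives no SE. Each SE printed is the absolute log2 fold change or interaction divided by the square root of the test's F statistic. The 4 mice are separate samples. Shares used exact permutation. The time test was checked on simulated data. Levels and ratios to other cells are descriptions, with 1 CPM added before logs. Intervals and count floors of 3 cover counting error only. Genes named over time were the 5 with the smallest p in each direction at a mean of 10 CPM or more, as no gene passed, plus genes of the fixed lists; some are not reported here. No doublets were removed.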

Additional observations from a re-analysis of the deposited data

Results flagged for a closer look

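The change of Cd74 from 2 to 4 weeks differed between the members and fibroblast-rule cells by -3.28 on the log2 scale, that of H2-Ab1 by -3.92 and that of H2-Aa by -4.24. A test of that difference itself, the interaction in edgeR, passed for these 3 genes and no other of 9149. In each gene both 4-week values of the fibroblast-rule cells were above both 2-week values, while the members' were lower or overlapped. In the members, 97.5% of the members' Cd74 UMIs lay in 33 of 161 cells, those with a UMI of Ptprc, Epcam or Col1a1.

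In the EYFP-positive table, which the comparisons here do not use, 15 of 13362 cells held 2 or more of the 4 rule genes and none of the 2 exclusion genes. Their median depth was 18931 UMIs, 8 held 5 or more of the 20 pan-endothelial genes, and 14 held a UMI of Epcam.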

How the results depend on the processing

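No call passed the test of time in the members under 7 alternatives to edgeR's main settings (other size factors, no robust fit, no enzyme genes, 3 or more rule genes, the 128 members, no lymphatic-marker cells, no members above 15000 UMIs), the last 2 chosen after seeing the data. DESeq2 gave 13 calls and no filter on low counts 73, and leaving out each mouse gave 45 to 75. In the interaction, no filter gave 52 calls and leaving out each mouse 24 to 66. A lone mouse in an arm is assumed to vary like the others, and the cause of the higher counts was not tested. Isg15 turned to a log2 fold change of 1.13 without 2-week mouse 1. Its values without each mouse ran from -3.45 to 1.13. Thinned to 1000 UMIs, the subsets held 82.6 (capillary), 14 (arterial), 5.2 (venous) and 1 (tip-cell) members, as fewer UMIs per cell hold fewer markers. Of single-gene ratios to the remaining cells, 234 alternative values stayed and 18 moved. No paired analysis was possible because different mice make up the 2 time points and the labels give them no replicate numbers that pair them. Depth limits genes of few UMIs.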
